A study of Homo sapiens with 9 samples.

Results

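The expression of 9 genes of human leukocyte antigen (HLA) class I and of its peptide loading (*HLA-B*, *HLA-C*, *HLA-E*, *HLA-F*, *B2M*, *TAP1*, *TAP2*, *TAPBP* and *NLRC5*) was followed across 9 arrays of MDA-MB-231 cells, an established line of triple-negative breast cancer. The arrays measured 22465 genes under a single symbol. Out of these the 9 genes were chosen by name, with earlier results of these data known. Each was read from the transcript cluster (the array's unit for 1 gene) with the highest mean over the 9 arrays. MDA-MB-231 (ELOVL5) cells carried a stable short hairpin RNA against *ELOVL5*, which encodes an elongase of polyunsaturated fatty acids, and MDA-MB-231 (IGFBP6) cells carried one against *IGFBP6*, which encodes a secreted binding protein of insulin-like growth factors. The control, MDA-MB-231 (LUC), carried a hairpin against firefly luciferase, a gene that human cells lack. All 3 cultures were made with the same lentiviral vector and puromycin selection. The IGFBP6 culture came from earlier work of the authors, and the ELOVL5 culture was made for the study itself. For each target the culture with the strongest knockdown was used. The part of this history in the differences was not tested. Each group was 1 stable culture from which 3 RNA samples were obtained independently. The p-values below therefore measure the spread between these samples and not between separate knockdowns. The comparisons ask how the expression profile of the cells shifted when either gene was reduced.

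In class I antigen presentation, a polymorphic heavy chain such as HLA-B or HLA-C folds with the light chain beta-2 microglobulin, encoded by *B2M*, and with a short peptide made by the proteasome. The TAP1 and TAP2 proteins together form the pump that carries peptides into the endoplasmic reticulum, and tapasin, encoded by *TAPBP*, holds empty class I molecules at that pump until a peptide binds. NLRC5 is a transactivator of class I genes. The finished complex shows cell contents to cytotoxic T cells, and tumours often display less of it.

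The genes of this pathway have related control regions, and the 200 bases before the transcription start are shown for *B2M*, *HLA-B*, *TAPBP* and *TAP1*, which fell in one knockdown, and for *TAP2*, which did not pass the test in any comparison. RefSeq windows were found for 7 of the 9 genes, and none was used for *HLA-E* and *NLRC5*. Sequences run 5′ to 3′, and capitals mark matches on either strand to the interferon response element, as the long form (GAAA, any 2 bases, then GAAA again) or the short form GAANNGAAA (overlaps between matches included), to TGACG, the core of the X2 box, and to CCAAT.
*HLA-B* (GRCh38.p14 chr6:31357180-31357379, minus strand): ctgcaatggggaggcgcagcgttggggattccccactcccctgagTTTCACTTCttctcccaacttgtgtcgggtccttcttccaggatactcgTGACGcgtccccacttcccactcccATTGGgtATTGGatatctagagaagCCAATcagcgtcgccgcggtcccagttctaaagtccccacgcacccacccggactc
*B2M* (GRCh38.p14 chr15:44711317-44711516, plus strand): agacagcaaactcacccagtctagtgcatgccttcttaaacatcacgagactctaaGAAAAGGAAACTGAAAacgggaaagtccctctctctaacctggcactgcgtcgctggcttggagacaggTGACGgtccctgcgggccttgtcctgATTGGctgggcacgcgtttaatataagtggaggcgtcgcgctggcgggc
*TAPBP* (GRCh38.p14 chr6:33314079-33314278, minus strand): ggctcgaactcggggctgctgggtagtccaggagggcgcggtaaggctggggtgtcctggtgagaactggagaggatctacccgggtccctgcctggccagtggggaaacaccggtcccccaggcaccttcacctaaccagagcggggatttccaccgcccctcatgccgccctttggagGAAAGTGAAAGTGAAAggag
*TAP1* (GRCh38.p14 chr6:32853705-32853904, minus strand): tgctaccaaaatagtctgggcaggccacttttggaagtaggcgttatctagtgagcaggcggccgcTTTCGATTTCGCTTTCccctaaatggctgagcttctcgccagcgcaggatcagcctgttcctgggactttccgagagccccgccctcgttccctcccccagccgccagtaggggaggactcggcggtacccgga
*TAP2* (GRCh38.p14 chr6:32838740-32838939, minus strand): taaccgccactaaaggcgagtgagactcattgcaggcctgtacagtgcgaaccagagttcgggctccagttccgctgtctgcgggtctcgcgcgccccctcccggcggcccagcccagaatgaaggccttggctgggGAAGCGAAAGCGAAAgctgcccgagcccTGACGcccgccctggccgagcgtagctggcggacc
Each of the 7 windows is that of the gene's outermost start, whereas the shares over all windows were counted without that choice. All 7 windows held at least 1 of the forms of the response element, against 7.16% of 35116 RefSeq windows of the same length. The long form stood in 5 of them (*HLA-F*, *B2M*, *TAP1*, *TAP2* and *TAPBP*; 2.4% of all windows) and the short form in 3 (*HLA-B*, *HLA-C* and *TAP2*; 5.11% of all windows). TGACG was found in the windows of *HLA-B*, *HLA-C*, *B2M* and *TAP2* (18.4% of all windows), and CCAAT in those of *HLA-B*, *HLA-C*, *HLA-F* and *B2M* (28.0% of all windows). These matches describe letters of the reference genome, and the motifs were chosen after the values of the genes had been seen. The window of *TAP2* holds the response element as well.

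The arrays gave log2 intensities between 2.28 and 19.29 with a median of 5.02, and the correlation between arrays of 1 group was 0.9901 to 0.9976. The targeted genes followed the labels. *ELOVL5* averaged 9.63 ± 0.06 in ELOVL5 cells and 11.29 ± 0.06 in LUC cells (SD, n = 3 each), a log2 difference of -1.66 (adjusted p = 8.71e-05, limma with Benjamini-Hochberg adjustment). *IGFBP6* averaged 5.50 ± 0.18 in IGFBP6 cells and 6.12 ± 0.09 in LUC cells (SD, n = 3 each), a log2 difference of -0.62 (adjusted p = 0.00183) that lay close to the fold threshold, and it fell short of that threshold without IGFBP6 replicate 2 (-0.52) or LUC replicate 2 (-0.58). *VIM*, *CD44* and *EGFR*, which this line expresses strongly, lay between 12.44 and 15.3. *ESR1* and *PGR*, the hormone receptors it lacks, lay between 4.03 and 4.79. Relative to LUC cells, IGFBP6 cells had less *CD44* (log2 difference -0.67, adjusted p = 0.00135, limma). They had more *EGFR* (0.80, adjusted p = 3.31e-04, limma), and *VIM* differed by 0.31.

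With *IGFBP6* knocked down, 6 of the 9 genes fell relative to LUC, namely *HLA-B*, *HLA-C*, *HLA-F*, *B2M*, *TAP1* and *TAPBP*, by 1.72 to 4.24 times. None rose. In bulk RNA, fewer cells with a transcript and less of it per cell cannot be told apart. A gene was called when its adjusted p was under 0.05 and its change at least 1.5 times, and 8.49% of all genes were called lower in this comparison. In the knockdown of the *ELOVL5* gene, 0 of the 9 genes were called, where 1.36% of all genes were (0.672% higher and 0.69% lower). That count was also 0 at an unadjusted p under 0.05 with limma, which 13.2% of all genes reached, and at the same thresholds with ordinary variances that were not moderated across genes. Set directly against each other, IGFBP6 cells were below ELOVL5 cells in the same 6 genes, where 6.64% of all genes were called lower. The median log2 difference over the 9 genes was -0.06 for ELOVL5 minus LUC, -1.09 for IGFBP6 minus LUC and -0.87 for IGFBP6 minus ELOVL5, and over all genes it was between -0.02 and 0.02. Both knockdowns were set against the same 3 LUC arrays, so the comparisons with LUC are not independent of each other.

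**Figure D1:**
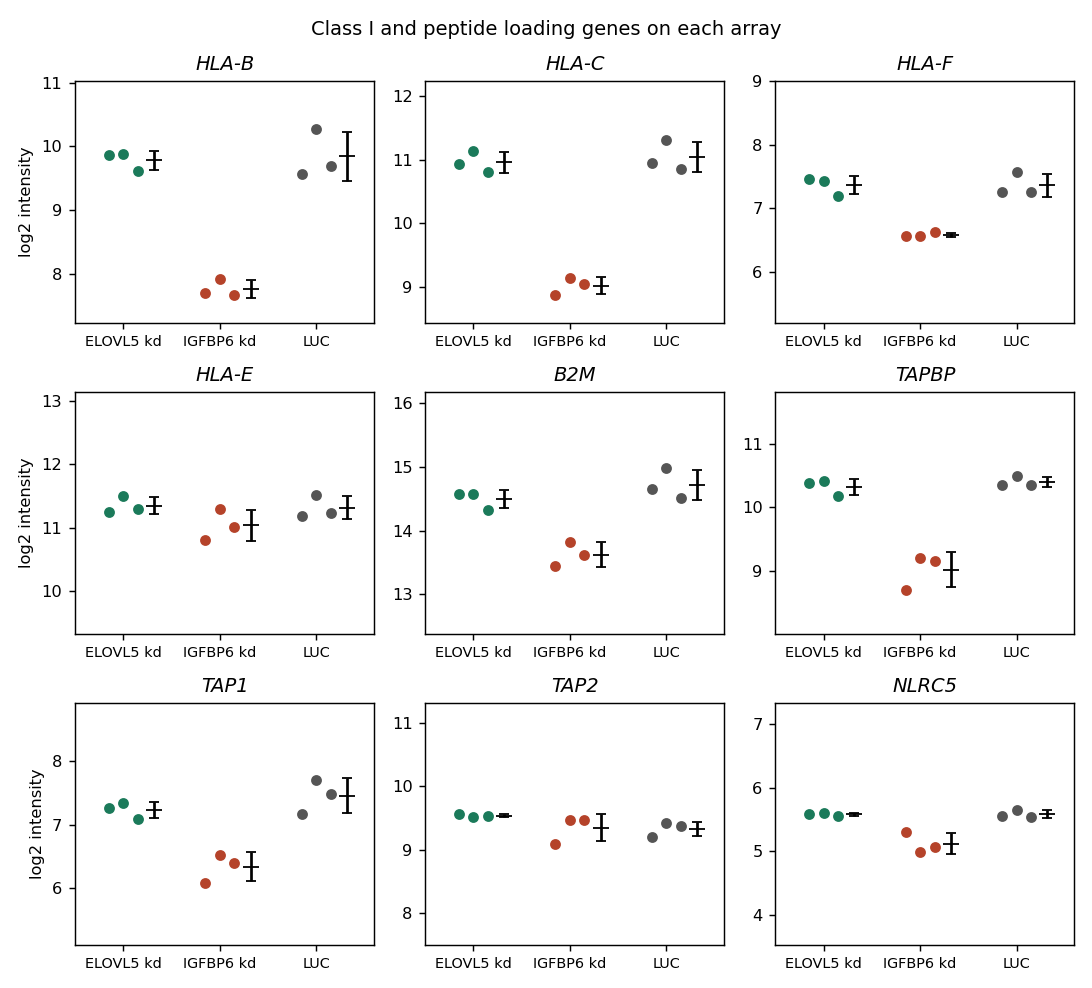
Log2 intensity (vertical axis, the same span in every panel) of the 9 genes on each array, with ELOVL5 knockdown (kd), IGFBP6 knockdown and LUC from left to right; points are arrays in the order of their replicate number, and the bars beside them give the mean and SD of 3 arrays. For *HLA-B*, *HLA-C*, *HLA-F*, *B2M*, *TAPBP*, *TAP1* and *NLRC5* all 3 IGFBP6 arrays lie below all LUC arrays, while *HLA-E* and *TAP2* overlap.

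*HLA-B* and *HLA-C*, the classical heavy chains measured here, had the largest changes of the 9 genes. *HLA-B* was at 7.70, 7.92 and 7.66 in IGFBP6 cells, at 9.86, 9.88 and 9.61 in ELOVL5 cells and at 9.56, 10.28 and 9.69 in LUC cells (log2 intensity, replicates 1 to 3). Every IGFBP6 array was therefore far below every other array, and the ELOVL5 and LUC arrays lay among each other. The log2 difference was -2.08 (4.24 times, SE 0.17, adjusted p = 1.85e-05) for IGFBP6 minus LUC and -2.02 (adjusted p = 3.93e-05) for IGFBP6 minus ELOVL5. For ELOVL5 minus LUC it was -0.06, with a 95% interval of -0.45 to 0.33. *HLA-C* was at 8.87, 9.14 and 9.04 in IGFBP6 cells, at 10.93, 11.14 and 10.80 in ELOVL5 cells and at 10.95, 11.31 and 10.86 in LUC cells. Again the IGFBP6 arrays stood apart and the other groups overlapped. The *HLA-C* difference was -2.02 (4.07 times, SE 0.14, adjusted p = 4.83e-06) for IGFBP6 minus LUC, -1.94 (adjusted p = 1.32e-05) for IGFBP6 minus ELOVL5 and -0.08 (interval -0.39 to 0.22) for ELOVL5 minus LUC.

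*HLA-E* and *HLA-F* encode non-classical heavy chains of limited variation, and HLA-E shows leader peptides of other class I chains to receptors of natural killer cells. *HLA-F* was at 6.56, 6.56 and 6.62 in IGFBP6 cells, at 7.46, 7.43 and 7.20 in ELOVL5 cells and at 7.26, 7.57 and 7.26 in LUC cells. Its IGFBP6 arrays were below all the others. The difference was -0.78 (1.72 times, SE 0.11) both for IGFBP6 minus LUC (adjusted p = 6.33e-04) and for IGFBP6 minus ELOVL5 (adjusted p = 8.9e-04), and 0.00 for ELOVL5 minus LUC (interval -0.25 to 0.25). *HLA-E* was at 10.81, 11.29 and 11.01 in IGFBP6 cells, at 11.25, 11.50 and 11.30 in ELOVL5 cells and at 11.19, 11.52 and 11.24 in LUC cells. The 3 groups overlapped, and no difference of *HLA-E* passed the test. For IGFBP6 minus LUC it was -0.28 (interval -0.59 to 0.03, adjusted p = 0.241), an interval that leaves room for a modest fall but not for one of the size seen in *HLA-B*.

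*B2M*, on chromosome 15 and so outside the major histocompatibility complex (MHC) on chromosome 6, encodes the light chain that every class I molecule needs. It was at 13.44, 13.82 and 13.61 in IGFBP6 cells, at 14.58, 14.57 and 14.33 in ELOVL5 cells and at 14.65, 14.98 and 14.52 in LUC cells. All IGFBP6 arrays were lowest. The difference was -1.09 (2.13 times, SE 0.14, adjusted p = 3.62e-04) for IGFBP6 minus LUC and -0.87 (1.83 times, adjusted p = 0.00209) for IGFBP6 minus ELOVL5. ELOVL5 cells did not differ from LUC cells beyond the error (-0.22, interval -0.54 to 0.09, adjusted p = 0.647).

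Of the loading genes, *TAPBP* fell most. It was at 8.70, 9.20 and 9.16 in IGFBP6 cells, at 10.38, 10.42 and 10.18 in ELOVL5 cells and at 10.35, 10.49 and 10.35 in LUC cells, so the IGFBP6 arrays were again separate from the other 6. The difference was -1.38 (2.6 times, SE 0.14, adjusted p = 5.73e-05) for IGFBP6 minus LUC, -1.31 (adjusted p = 1.28e-04) for IGFBP6 minus ELOVL5 and -0.07 (interval -0.37 to 0.23) for ELOVL5 minus LUC. Of the subunits of the peptide pump, *TAP1* fell and *TAP2* did not pass the test. *TAP1* was at 6.09, 6.53 and 6.40 in IGFBP6 cells, at 7.27, 7.34 and 7.09 in ELOVL5 cells and at 7.17, 7.71 and 7.49 in LUC cells. Its difference was -1.12 (2.17 times, SE 0.16, adjusted p = 5.52e-04) for IGFBP6 minus LUC, -0.89 (adjusted p = 0.00298) for IGFBP6 minus ELOVL5 and -0.22 (adjusted p = 0.687) for ELOVL5 minus LUC. *TAP2* was at 9.10, 9.47 and 9.47 in IGFBP6 cells, at 9.57, 9.52 and 9.53 in ELOVL5 cells and at 9.21, 9.42 and 9.37 in LUC cells. IGFBP6 and LUC arrays overlapped, with a difference of 0.01 (interval -0.24 to 0.27, adjusted p = 0.967). The *TAP2* arrays of ELOVL5 cells were all above those of LUC cells, as were those of 9.91% of all genes, but the difference of 0.21 did not pass the test (adjusted p = 0.57).

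*NLRC5* was close to the median of the arrays, where background limits how large a fold change can appear. It was at 5.30, 4.99 and 5.06 in IGFBP6 cells, at 5.58, 5.60 and 5.56 in ELOVL5 cells and at 5.56, 5.65 and 5.54 in LUC cells. The IGFBP6 arrays were below the others, and the differences of -0.47 from LUC (SE 0.10, adjusted p = 0.0066) and -0.46 from ELOVL5 (adjusted p = 0.0083) passed the test on p but not the fold threshold. All IGFBP6 arrays were below all LUC arrays in 7 of the 9 genes, a pattern found in this direction for 19.5% of all genes. They were below all ELOVL5 arrays in 8 of the 9, *TAP2* included, against 18.9% of all genes.

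**Figure D2:**
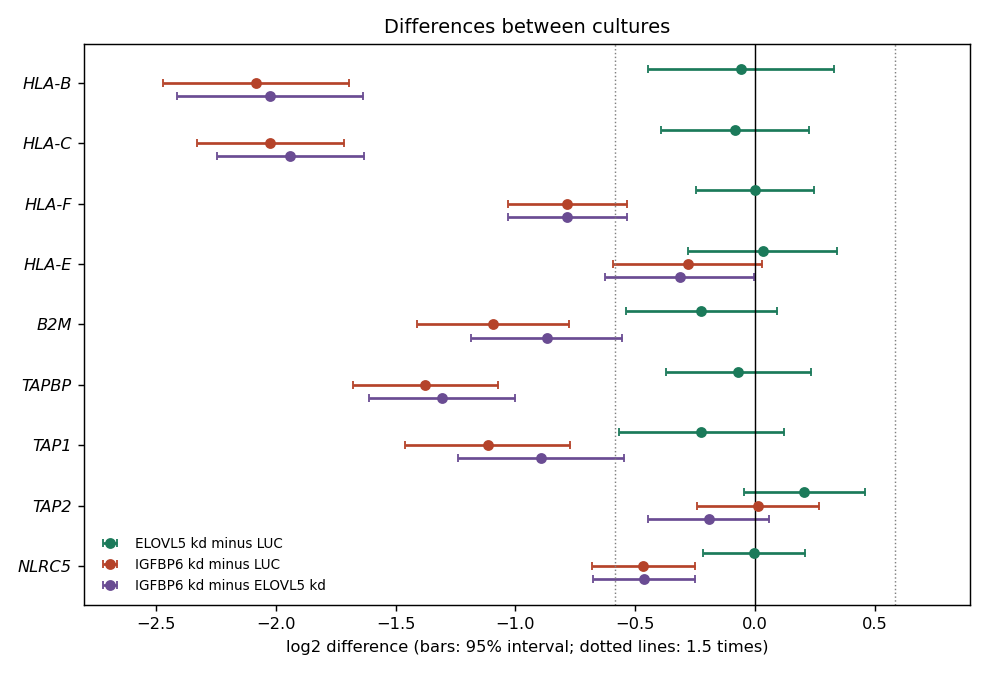
Log2 differences of the 9 genes in the 3 comparisons (horizontal axis), with bars for the 95% interval of limma's fit and dotted lines at a change of 1.5 times. The differences of IGFBP6 from LUC and from ELOVL5 lie far left of 0 for *HLA-B* and *HLA-C* (-2.08 to -1.94) and near 0 for *TAP2*, while every interval of ELOVL5 minus LUC includes 0.

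Most of these genes lie in the MHC, for which the array carries several transcript clusters per gene, named after alternative haplotypes. The HLA genes share long near-identical stretches, so their probes may take up each other's RNA, and the alleles of this cell line may match some probes better than others. Neither was tested. The 9 genes had 50 transcript clusters, of which 30 were called lower in IGFBP6 minus LUC, 29 in IGFBP6 minus ELOVL5 and 0 in ELOVL5 minus LUC. Many of these clusters share probes and are not independent. All 6 clusters of *HLA-B* (-2.08 to -1.72), all 7 of *HLA-C* (-2.16 to -1.25), all 8 of *TAP1* (-1.14 to -1.12) and all 5 of *TAPBP* (-1.38 to -1.27) were called lower in IGFBP6 cells relative to LUC cells. The size of the *HLA-C* difference thus depended on the cluster. *HLA-F* was called in 3 of its 7 clusters (-0.78 to -0.52), with adjusted p of 0.00195 or less in every one, and stayed under the fold threshold in the others. None of the 7 clusters of *HLA-E* (-0.28 to -0.27) or of the 8 of *TAP2* (-0.04 to 0.03) was called.

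**Figure D3:**
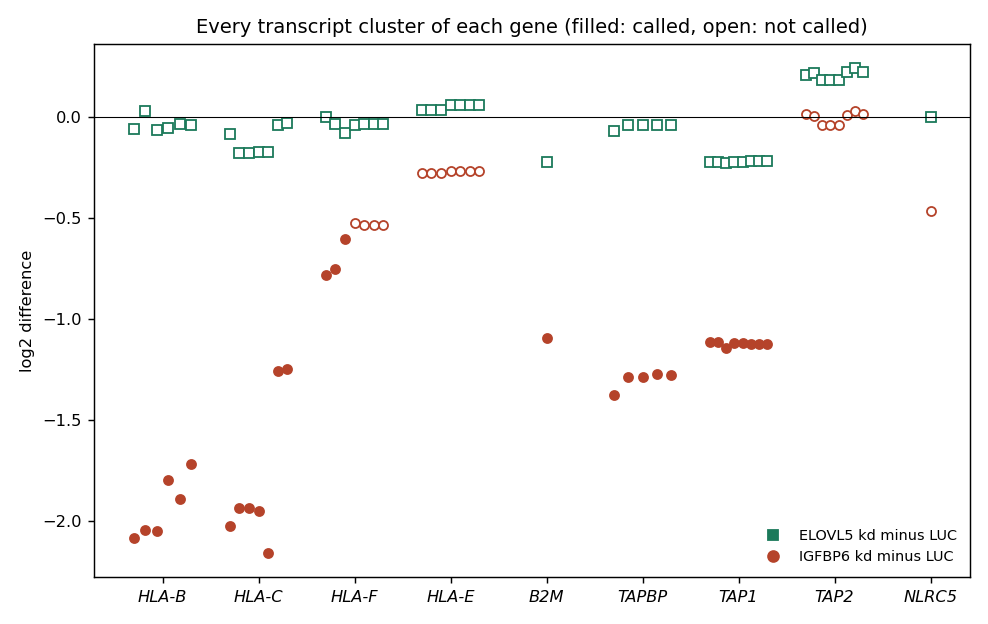
Log2 difference of every transcript cluster of each gene (vertical axis) for ELOVL5 minus LUC (squares) and IGFBP6 minus LUC (circles); filled symbols were called and open ones were not. The IGFBP6 symbols of *HLA-B*, *HLA-C*, *TAP1* and *TAPBP* are filled throughout, and no ELOVL5 symbol is.

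LUC replicate 2 was the highest of the LUC arrays in 9 of the 9 genes, whereas it was the highest for 31.7% of the 10849 genes with a mean log2 intensity of at least 6. IGFBP6 replicate 1 was the lowest of its group in 6 of the 9 genes, and for 66.5% of those 10849 genes. Without LUC replicate 2 the differences of IGFBP6 minus LUC were -1.86 for *HLA-B*, -1.89 for *HLA-C*, -0.68 for *HLA-F*, -0.96 for *B2M*, -0.99 for *TAP1* and -1.33 for *TAPBP*, and all 6 were still called. Without IGFBP6 replicate 1 they were -2.05, -1.95, -0.77, -1.002, -0.99 and -1.22 in the same order, and again all were called.

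The genes with the profile most like each called gene were sought among the 10849 genes, as the smallest root mean square distance over the 9 arrays after the LUC mean of each gene was subtracted. For *HLA-B* the nearest was *HLA-C* (distance 0.116 on the log2 scale), followed by *SVIL* (0.163), which encodes an actin-binding protein, and *FN1* (0.173), which encodes fibronectin. *HLA-C* was nearest to *TNFRSF21* (0.109), a death receptor, and then to *HLA-B* and *SVIL* (0.116 each). The nearest to *HLA-F* were *RIPK4* (0.085), *B3GLCT* (0.098) and the class I pseudogene *HLA-J* (0.098). For *B2M* they were *ANXA4* (0.088), *SANBR* (0.104) and *MMP24-AS1* (0.112). *TAP1* was nearest to *IRAK2* (0.091), *SUGP2* (0.103) and *SANBR* (0.103), and *TAPBP* to *ELF4* (0.093), *MAVS* (0.095) and *KIF13A* (0.106). With groups of 3 arrays, this likeness mostly records a shared difference between the groups.

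Around the 9 genes, 61 further genes of class I biology were analysed. In IGFBP6 minus LUC 3 of the 61 were called higher and 10 lower, with a median log2 difference of -0.15, where 7.82% of all genes were called higher and 8.49% lower. In IGFBP6 minus ELOVL5 the counts were 3 higher and 12 lower, where 6.5% and 6.64% of all genes were. In ELOVL5 minus LUC 1 gene was called higher and 0 lower, while 8 of the 61 had an unadjusted p under 0.05 with limma, a share near the 13.2% of all genes that did. That 1 call was lost with variances that were not moderated across genes.

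Of 5 measured other class I genes and pseudogenes, 4 fell in IGFBP6 cells relative to LUC cells and none rose. Over all genes, 8.49% were called lower and 7.82% higher in that comparison. The pseudogene *HLA-H* was at 7.78, 7.84 and 7.63 in IGFBP6 cells, at 9.39, 9.58 and 9.32 in ELOVL5 cells and at 9.40, 9.66 and 9.19 in LUC cells. It thus differed by -1.67 from LUC (adjusted p = 1.11e-05). *HLA-J* (-0.87), *HLA-L* (-0.78) and *HLA-G* (-0.72), which encodes a heavy chain best known from the placenta, were also called. *HLA-V* had a difference of 0.00. It lay between 4.96 and 5.32 on the arrays, near their median of 5.02, where background limits how large a fold change can appear. How far these falls and those of *HLA-B* and *HLA-C* come from shared probes was not tested.

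Peptides are made by the proteasome and trimmed in the endoplasmic reticulum. Of 5 genes of the immunoproteasome and its PA28 activator, 1 fell in IGFBP6 cells relative to LUC cells, the catalytic subunit gene *PSMB9* (-0.78, adjusted p = 0.00756). Over all genes, 8.49% were called lower in that comparison. *PSMB8* had a difference of -0.43 and was not called. None of the 3 constitutive catalytic subunits was called in any comparison. In IGFBP6 minus LUC 2 of them had an unadjusted p under 0.05 (limma, 36.6% of all genes), *PSMB5* at 0.39 and *PSMB7* at -0.46. Among 7 peptidases, chaperones and editors of the endoplasmic reticulum, 2 were called lower in IGFBP6 minus LUC, where 8.49% of all genes were. These were the aminopeptidases that trim class I peptides. *ERAP2* differed by -0.90 (adjusted p = 1.49e-04) and *ERAP1* by -0.81 (adjusted p = 9.94e-04) from LUC. The general chaperones were not called, with differences of -0.32 for *CALR*, -0.08 for *CANX* and -0.05 for *PDIA3*.

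Of 13 measured transcription regulators of class I genes, 2 fell in IGFBP6 cells relative to LUC cells and none rose. Over all genes, 8.49% were called lower and 7.82% higher in that comparison. *IRF1*, an activator of *B2M* and of the heavy chain genes, was at 5.57, 5.35 and 5.43 in IGFBP6 cells, at 6.20, 6.19 and 6.23 in ELOVL5 cells and at 6.38, 6.36 and 6.0 in LUC cells. The IGFBP6 arrays did not overlap the others, and the difference from LUC was -0.80 (adjusted p = 6.76e-04). Their values came near the median of the arrays, where background limits how large a fold change can appear. The other was *EZH2* (-0.79, adjusted p = 1.96e-04), whose product is the methyltransferase of a complex known to repress class I genes. *CIITA*, the master regulator of class II genes, was in addition lower in IGFBP6 cells than in ELOVL5 cells (-0.71, adjusted p = 0.00114), at a level near the median of the arrays. None of 9 measured interferon receptors and signalling genes was called in IGFBP6 minus LUC, and 5 had an unadjusted p under 0.05 with limma, where 36.6% of all genes did. The kinase gene *TYK2* was the 1 gene of these 9 called in IGFBP6 minus ELOVL5 (-0.76, adjusted p = 1.65e-04), where 6.64% of all genes were called lower.

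**Figure D4:**
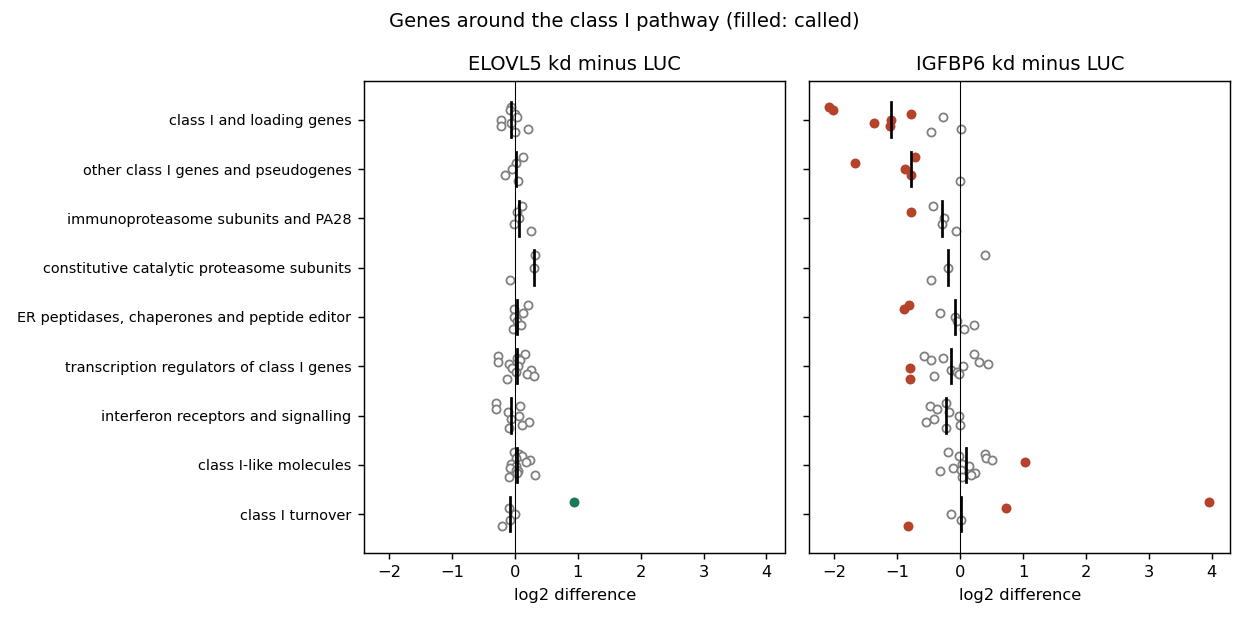
Log2 differences (horizontal axis) of the 9 genes (top row) and of the 61 further genes in 8 lists, for ELOVL5 minus LUC on the left and IGFBP6 minus LUC on the right; each point is a gene, filled where it was called, and the vertical bars are medians. The 9 genes have a median of -1.09 on the right and -0.06 on the left, and *MARCHF4* is the point at 3.96.

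The largest change among the listed genes was a rise. *MARCHF4* encodes a membrane-bound ubiquitin ligase that, when overexpressed, removes class I molecules from the cell surface. It was at 11.29, 11.59 and 11.53 in IGFBP6 cells, at 8.52, 8.30 and 8.51 in ELOVL5 cells and at 7.48, 7.38 and 7.67 in LUC cells. The 3 groups were fully apart, with IGFBP6 cells highest and ELOVL5 cells between them and LUC cells. The log2 difference was 3.96 (adjusted p = 2.35e-08) for IGFBP6 minus LUC, 3.03 (adjusted p = 3.19e-07) for IGFBP6 minus ELOVL5 and 0.93 (adjusted p = 0.00367) for ELOVL5 minus LUC. Its relative *MARCHF9* rose by 0.73 in IGFBP6 cells (adjusted p = 3.72e-04). In contrast, *WWP2*, a ubiquitin ligase gene also tied to class I turnover, fell by 0.84 (adjusted p = 3.67e-04). Of the 5 listed turnover genes, 2 were called higher, 1 lower and 2 not at all in IGFBP6 minus LUC, so they shared no direction. Over all genes, 7.82% were called higher and 8.49% lower. Of 14 class I-like genes 1 was called higher and 0 lower in IGFBP6 minus LUC, no larger a share than over all genes. The gene was *RAET1E*, which encodes a ligand of the NKG2D receptor of natural killer cells. It differed by 1.03 between IGFBP6 and LUC cells (adjusted p = 6.62e-05), with IGFBP6 cells at 6.29, 6.58 and 6.21, ELOVL5 cells at 5.47, 5.50 and 5.55 and LUC cells at 5.36, 5.28 and 5.36. The ELOVL5 and LUC values were near the median of the arrays, where background limits the fold change. *MICA* and *MICB*, other ligands of that receptor, had differences of -0.20 and 0.39 and were not called.

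Since 7 of the 9 genes lie on chromosome 6, the other 161 measured genes from *HLA-F* to *TAPBP* were set beside them. In IGFBP6 minus LUC 6 of the 161 were called higher and 14 lower, with a median of -0.06. Without symbols that begin with HLA, 139 genes were left, 6 called higher and 7 lower with a median of -0.05. The share over all genes was 7.82% higher and 8.49% lower. Many genes of the segment were dim, and 81 of the 161 had a mean log2 intensity of at least 6. Of these 81, HLA genes included, 5 were called higher and 12 lower in IGFBP6 minus LUC. In IGFBP6 minus ELOVL5 1 was called higher and 16 lower, where 6.5% and 6.64% of all genes were. The share over all genes of that level was not computed. The segment holds 16 measured genes with symbols that begin with HLA-D, namely class II genes, pseudogenes of them and an antisense RNA. Class II genes mostly serve antigen-presenting cells. Of the 16, 3 fell in IGFBP6 cells relative to LUC cells. *HLA-DRA* was at 4.69, 4.54 and 4.51 in IGFBP6 cells, at 8.20, 8.84 and 8.02 in ELOVL5 cells and at 6.49, 7.80 and 6.01 in LUC cells. Here the groups were apart in a different order from that of the class I genes, with ELOVL5 cells highest. The *HLA-DRA* difference was -2.19 (adjusted p = 0.00237) for IGFBP6 minus LUC, -3.77 (adjusted p = 1.06e-04) for IGFBP6 minus ELOVL5 and 1.59 (adjusted p = 0.0948, not called) for ELOVL5 minus LUC. *HLA-DRB1* differed by -1.27 between IGFBP6 and LUC cells, by -2.43 between IGFBP6 and ELOVL5 cells and by 1.16 between ELOVL5 and LUC cells. The last of these (adjusted p = 0.0386) was the 1 gene of the segment called in ELOVL5 minus LUC, and no gene was called there when any ELOVL5 array, LUC replicate 1 or 3 or IGFBP6 replicate 3 was left out. *HLA-DMA*, whose product helps load class II molecules, differed by -1.25 from LUC and by -1.53 from ELOVL5 in IGFBP6 cells.

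**Figure D5:**
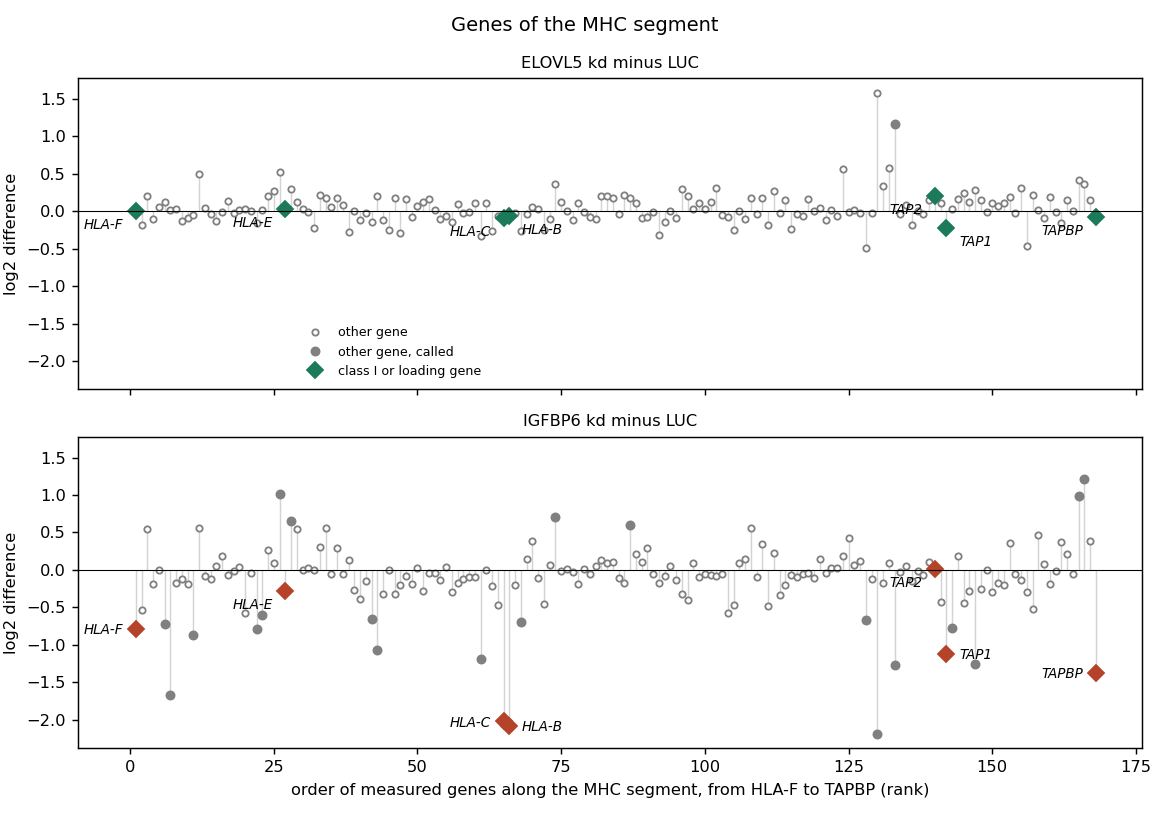
Log2 difference (vertical axis) of the measured genes of the MHC segment in their order along chromosome 6, from *HLA-F* to *TAPBP* (horizontal axis, rank), for ELOVL5 minus LUC (top) and IGFBP6 minus LUC (bottom); diamonds are the 7 class I and loading genes, called or not, and filled grey points are other genes that were called. In the lower panel *HLA-B* and *HLA-C* reach -2.08 and -2.02, while most genes of the segment lie near 0. Among the other genes *HLA-DRA* lies lowest at -2.19, followed by *HLA-H* at -1.67.

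Other cell types were checked through their markers. Of 10 leukocyte markers 9 were measured, at 3.77 to 5.61, that is around the median of the arrays, and their summed log2 levels were 38.66 to 40.65 in IGFBP6 cells, 39.49 to 39.87 in ELOVL5 cells and 40.41 to 41.04 in LUC cells. *PTPRC*, the pan-leukocyte marker, was called lower in IGFBP6 cells (4.51) than in LUC cells (5.28). The 3 endothelial markers lay between 3.45 and 5.0 and none was called. The part of these markers in the results was not tested.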

How the data were processed

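Total RNA of 9 samples of MDA-MB-231 cells was hybridised by the authors to Affymetrix Human Transcriptome Array 2.0 arrays, 1 sample per array and 3 arrays per group (ELOVL5, IGFBP6 and LUC). The deposited values are log2 intensities that the authors computed with RMA (background correction, quantile normalization and summary of probes) in Transcriptome Analysis Console 4.0.0.25, rounded to 2 decimals, with the genome build not given in the sources used here. RMA equalises the arrays, so a shift of all genes would not be seen, and values near the median of 5.02 are compressed by background. The number of arrays limits the precision.

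One linear model without covariates, run in limma 3.58.1 under R 4.3.3, covered the 9 arrays and 67528 transcript clusters, its variances were moderated by eBayes, and p-values were adjusted over all of them by Benjamini-Hochberg. Calls required both an adjusted p below 0.05 and a difference of 1.5 times or more. Genes were named through the platform annotation: 23781 clusters had 1 symbol, 1543 several and 42204 none. For each of the 22465 genes the cluster with the highest mean was used. The 9 genes, the lists and the motifs were chosen with earlier results of these data known. Named were the 9 genes, both targeted genes, up to 4 called genes of each list and of the MHC segment by the size of their difference, the 3 nearest profiles of each called gene and, outside this rule and chosen after their values were seen, *HLA-V*, *PSMB8*, *PSMB5*, *PSMB7*, *CALR*, *CANX*, *PDIA3*, *MICA*, *MICB* and the cell type markers named. The order of genes on chromosome 6 and the promoter windows came from RefSeq (GRCh38.p14). The 20 alternatives changed the variance model, the block, the filter on dim clusters, the normalization, the weights, the threshold, the cluster or the adjustment, or left out 1 array. The fit was tested on simulated data. No column of other samples was present (0).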

Additional observations from a re-analysis of the deposited data

Results flagged for a closer look

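The same 6 genes differed between the knockdowns themselves, as tested by IGFBP6 minus ELOVL5 in the fit over all transcript clusters (limma, at the same thresholds as in the report). The log2 difference was -2.02 for *HLA-B*, -1.94 for *HLA-C*, -1.31 for *TAPBP*, -0.89 for *TAP1*, -0.87 for *B2M* and -0.78 for *HLA-F*, with all 3 IGFBP6 arrays below all 3 ELOVL5 arrays in each. In this comparison 6.64% of all genes were called lower. The values of *HLA-B*, *HLA-C* and *HLA-F* may share probes, which was not tested.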

How the results depend on the processing

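The 6 genes were called lower in IGFBP6 minus LUC, and 0 genes were called in ELOVL5 minus LUC, under all alternatives that gave a value, except that at a threshold of 2 times *HLA-F* (-0.78) was no longer called in IGFBP6 minus LUC. In IGFBP6 minus ELOVL5 the count was 3 at 2 times, with *B2M*, *TAP1* and *HLA-F* lost, and *HLA-F* was also lost with the mean of all its clusters (-0.57). *NLRC5* was called in both with the adjusted p alone, and gave no value once dim clusters were left out. Differences that changed sign were never called. When single arrays were left out, ELOVL5 minus LUC ranged from -0.20 (without LUC replicate 1) to 0.16 (without LUC replicate 2) for *HLA-B*, from -0.17 to 0.052 for *HLA-C*, from -0.042 to 0.14 for *HLA-E*, from -0.12 to 0.0033 for *TAPBP* and from -0.025 to 0.03 for *NLRC5*, which was at 0.0167 with median centring. *HLA-F*, at 0.00 in this comparison, has no direction there. Likewise IGFBP6 minus LUC ranged from -0.048 to 0.14 for *TAP2*, which was at -0.0071 with the mean of its clusters. With the adjusted p alone, the listed genes called were 24 in IGFBP6 minus LUC (13 in the fit reported) and 24 in IGFBP6 minus ELOVL5 (15), and the segment genes 37 (20) and 36 (17); at 2 times they were 3 and 3, and 8 and 5. In ELOVL5 minus LUC, where 1 listed gene and 1 segment gene were called, the count of listed genes was 0 without moderation and at 2 times. That of segment genes was 0 without moderation, 2 with the dim clusters left out or the adjusted p alone, and 0 to 3 when single arrays were left out. *IGFBP6* itself (-0.62) missed a threshold of 2 times and ranged from -0.69 to -0.52 when single arrays were left out, below the threshold of 1.5 times without IGFBP6 replicate 2 or LUC replicate 2 (-0.58).

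Whether the replicate numbers pair the samples was not settled. Deviations of same-numbered arrays from their group means correlated from -0.06 to 0.33 over all clusters. Over those with a mean log2 intensity of at least 6 they correlated from -0.10 to 0.49. For arrays with different numbers the ranges were -0.27 to 0.188 and -0.345 to 0.242. The ranges thus overlapped, and the highest correlation in both sets was between replicate 1 of IGFBP6 and of LUC. With the replicate block, 6 and 6 of the 9 genes were called lower in IGFBP6 minus LUC and IGFBP6 minus ELOVL5 and 0 in ELOVL5 minus LUC, the *HLA-B* difference stayed at -2.08 in IGFBP6 minus LUC, and 2 segment genes were called in ELOVL5 minus LUC. Of 537 values of the 9 genes under the alternatives, 530 kept their side of the threshold, and the sign changes are those named above. The cause of the changes was not tested.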
